A study of Mus musculus with 6 samples.

Results

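The angiopoietin and Tie receptor axis was examined through 6 genes of the 24520 in the deposited table. They are the receptor genes Tek (which encodes TIE2) and Tie1, the ligand genes Angpt1, Angpt2 and Svep1, and Ptprb, which encodes the phosphatase VE-PTP. The rule that picks them is a list of names and uses no measured value, and all 6 were found. The list was, however, drawn up with earlier results of these data known. The samples are endothelial cells sorted by flow cytometry from lungs of mice with the wt genotype. There are 3 libraries from mice aged 18 months and 3 from mice aged 8 months. Both groups share the genotype, tissue and cell type, and no other agent or allele is labelled. Whether each library is 1 mouse or a pool is not labelled, and the p-values therefore measure only a spread between libraries that may be technical. The series concerns DNA methylation by DNMT3A in endothelium, and here the question is whether the expression of these 6 genes differs with age.

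TIE2 is a receptor tyrosine kinase of endothelial cells. Angiopoietin-1, made mainly by mural cells and platelets, activates it and keeps vessels quiescent, partly through PI3K and AKT, which hold the transcription factor FOXO1 out of the nucleus. Angiopoietin-2, made and stored by endothelial cells, is a context-dependent agonist or antagonist whose gene is itself a FOXO1 target. TIE1 is a related receptor that modulates TIE2, VE-PTP dephosphorylates TIE2, and SVEP1 is an extracellular matrix protein that binds TIE1 and acts in lymphatic vessels. Loss of TIE2 signalling in the lung is known for its association with vascular leak.

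Values are TPM, a share of all transcripts that is scaled to transcript length, so that levels of different genes can be set side by side. Sequencing depth cannot be read from TPM and is unknown here, which leaves no counting error to report. In mean TPM over the 6 libraries the order was Tek, Tie1, Ptprb, Angpt2, Angpt1 and Svep1. Tek and Tie1 were not separated: their ranges over libraries overlapped, and Tie1 lay below Tek in 5 of 6 libraries. For every later step of the order the lower gene lay below the higher one in 6 of 6 libraries. Among the 12748 genes whose mean reached 1 TPM, Tek ranked 172 by mean level, Tie1 202, Ptprb 459, Angpt2 1970 and Angpt1 9620. The receptors and the phosphatase were thus within the top 3.6% of these genes, Angpt2 within the top 15.5%, and Angpt1 in the lower part. Svep1, at 0.0721 TPM, was below that minimum and was not tested.

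Upstream sequence was available for 3 of the 6 genes from RefSeq (GRCm38.p6) and is shown because Tek and Tie1 head the order and Svep1 ends it. The window was the 250 bases before the RefSeq start. For Tie1 the printed stretch stops where an annotated coding transcript begins, and the whole Svep1 stretch lies in annotated exons of noncoding Svep1 transcripts. Capitals mark GGAA or its reverse complement TTCC, the core of the sequence that ETS transcription factors bind.
Tek, chr4:94739039-94739288, plus strand: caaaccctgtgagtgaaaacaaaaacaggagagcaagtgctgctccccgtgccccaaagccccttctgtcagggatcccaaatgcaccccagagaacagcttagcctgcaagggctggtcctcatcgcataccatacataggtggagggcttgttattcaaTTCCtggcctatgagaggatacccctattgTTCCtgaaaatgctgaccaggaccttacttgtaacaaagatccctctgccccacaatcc
Tie1, chr4:118490062-118490099, minus strand: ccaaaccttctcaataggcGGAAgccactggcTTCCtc
Svep1, chr4:58206597-58206846, minus strand: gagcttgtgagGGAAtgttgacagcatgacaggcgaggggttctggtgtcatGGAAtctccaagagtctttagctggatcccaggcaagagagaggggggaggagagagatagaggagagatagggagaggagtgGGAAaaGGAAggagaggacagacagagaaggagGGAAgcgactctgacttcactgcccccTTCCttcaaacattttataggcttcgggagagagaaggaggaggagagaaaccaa
In the whole 250-base window, GGAA or TTCC occurred 2 times for Tek, 7 times for Tie1 and 6 times for Svep1. Of the 7 for Tie1, 2 lie in the 38 printed bases, and the rest lie past the start of the annotated coding transcript. At least 1 match is found in 93.4% of 32851 such windows, with a median of 3, so this core is common. At least 7 matches are found in 3.8% of windows and at least 6 in 8.7%. The longer AGGAAG, searched on both strands, every match of which also holds the core, occurred 0 times for Tek, 1 time for Tie1 and 2 times for Svep1, and is in 29.5% of windows. GATAAG, a sequence of GATA factors searched the same way, occurred in none of the 3 windows and is in 6.5% of all. The dinucleotide CG, the usual site of DNA methylation, occurred 2 times for Tek, 6 times for Tie1 and 3 times for Svep1 against a median of 6. Svep1, at the bottom of the order, held more GGAA or TTCC than Tek at the top. The 3 windows are not alike, since those of Tie1 and Svep1 reach into annotated transcripts of the gene. The part of these sequences in the expression levels was not tested.

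Tek (chromosome 4, 94739289 to 94874976, GRCm38, plus strand), the receptor of both angiopoietins, lay at 604.5, 646.6 and 703.6 TPM in the first, second and the third 18-month libraries, and in those of 8 months at 647.5, 767.5 and 595.0 TPM. The ages overlapped, with both the highest and the lowest value at 8 months. The means were 651.6 ± 49.7 TPM at 18 months (SD, n = 3) and, at 8 months, 670.0 ± 88.4 TPM. The difference of log2(TPM + 1), 18 minus 8 months, was -0.03 (95% interval -0.32 to 0.25, limma adjusted p = 0.94). On the fold scale the interval runs from 0.804 to 1.19, given the spread between these libraries. The sign turned in 7 of 18 alternative analyses. Of the tested genes 83.4% had a smaller unadjusted p than Tek.

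Tie1 (chromosome 4, 118471191 to 118490061, minus strand), the receptor that modulates TIE2, had the smallest p of the 5 tested genes. It lay at 544.6, 388.9 and 612.4 TPM at 18 months, against 550.3, 743.6 and 631.5 TPM at 8 months. The second 18-month library was lowest and the second 8-month library highest, and the first and the third 18-month libraries fell near or within the 8-month range. The means were 515.3 ± 114.6 TPM (SD, n = 3) and 641.8 ± 97.0 TPM, which puts the 8-month mean 1.25-fold above the 18-month mean. The log2 difference was -0.33 with an interval from -0.76 to 0.10 (limma adjusted p = 0.49), so it did not pass. Without the second 18-month library the log2 difference was -0.14. The value stayed below 0 in all 18 alternative analyses, between -0.47 and -0.08. The value of -0.08 came from correcting for GC content and length.

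Ptprb (chromosome 10, 116275523 to 116389535, plus strand), the phosphatase that acts on TIE2 and on VE-cadherin complexes, lay at 364.0, 270.0 and 304.1 TPM at 18 months. It lay at 270.7, 346.2 and 298.9 TPM at 8 months. The second 18-month and the first 8-month libraries were lowest and close to each other, and the ages overlapped throughout. The means were 312.7 ± 47.6 TPM (SD, n = 3) and 305.3 ± 38.2 TPM, with a log2 difference of 0.03 and an interval from -0.29 to 0.36 (limma adjusted p = 0.95). None of these 3 genes of the receptor complex passed the test.

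Angpt2 (chromosome 8, 18690263 to 18741562, minus strand), the endothelial ligand, had the widest fold range of the tested members over all 6 libraries, although not at 18 months alone. It lay at 63.7, 77.2 and 78.5 TPM at 18 months, against 47.2, 103.8 and 71.1 TPM at 8 months. All 18-month libraries fell inside the 8-month range, whose ends were the first and second libraries. The coefficient of variation was 11.2% at 18 months and 38.3% at 8 months, a difference in spread that was not tested. The means were 73.1 ± 8.18 TPM (SD, n = 3) and 74.1 ± 28.4 TPM, with a log2 difference of 0.05 and an interval from -0.54 to 0.64 (limma adjusted p = 0.96). The sign rested on single libraries, with -0.24 without the first 8-month library and 0.32 without the second. Angpt2 lies inside the span of Mcph1 on the opposite strand, with which its exons shared 0 bases. Mcph1 lay at 4.76 ± 1.01 and 5.37 ± 0.496 TPM.

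Angpt1 (chromosome 15, 42424723 to 42676977, minus strand), the agonist of TIE2, was low. It lay at 4.60, 5.94 and 5.03 TPM at 18 months, against 4.32, 3.23 and 5.44 TPM at 8 months. The second 18-month library was highest, the second 8-month library was lowest, and the third 8-month library lay inside the 18-month range. The means were 5.19 ± 0.683 TPM (SD, n = 3) and 4.33 ± 1.10 TPM, with a log2 difference of 0.23 and an interval from -0.23 to 0.69 (limma adjusted p = 0.67). Without the second 8-month library the log2 difference was 0.08. Of the 31-base sequences in Angpt1 transcripts, 14.1% also occur in transcripts of other genes. Most of these are in Gm17473, which is annotated on the opposite strand and is absent from the deposited values. The library kit does not mark the strand, so reads from there cannot be told apart and the value is uncertain to that extent.

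Svep1 (chromosome 4, 58042442 to 58206859, minus strand), the matrix ligand of TIE1, lay at 0.0651, 0.0107 and 0.0328 TPM at 18 months, against 0.132, 0.128 and 0.0647 TPM at 8 months. The first 18-month library was level with the third 8-month library, and the others were lower at 18 months. The means were 0.0362 ± 0.0274 TPM (SD, n = 3) and 0.108 ± 0.0376 TPM. At these levels the pseudocount sets the size of any log2 difference, which was -0.10 with 1 TPM and -0.61 with 0.1 TPM added, and no test was made. Of its 31-base sequences 14.5% occur in other genes, mostly in Gm26889 on the opposite strand. Gm26889 is also absent from the deposited values, so the value of Svep1 is uncertain to that extent as well.

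**Figure D1:**
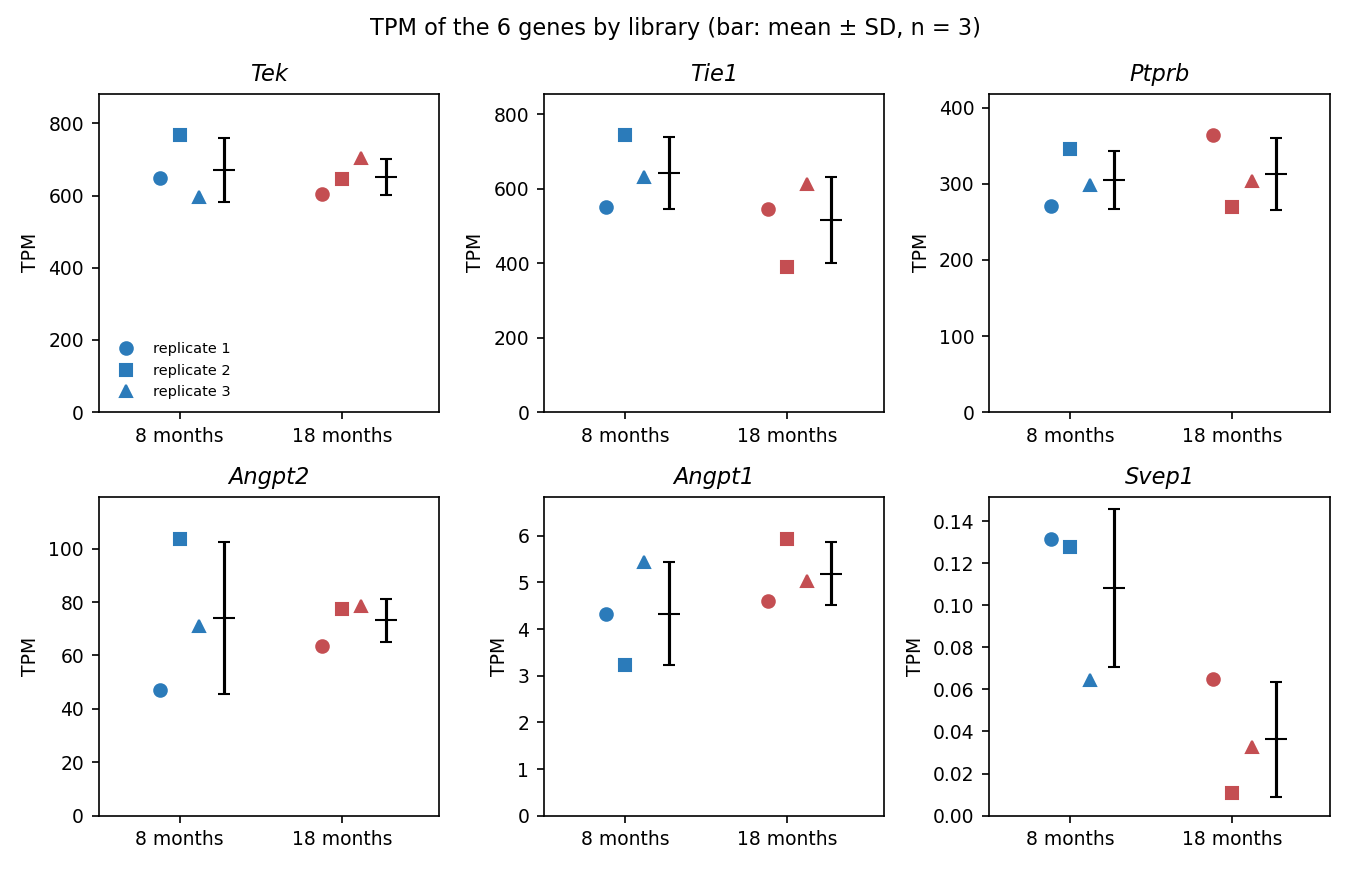
TPM (y axes, linear, each from 0) of the 6 genes in the 3 libraries of each age (x axis); symbols mark the replicate number and bars the mean ± SD (n = 3). The ages overlap in every panel, and the second 8-month library is highest for Tek, Tie1 and Angpt2 and lowest for Angpt1.

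Of the 5 tested members, 0 passed the limma test at an adjusted p under 0.05 (background 0.0235%, 3 of 12748 genes, with 0.00784% higher and 0.0157% lower at 18 months). At an unadjusted p under 0.05 there were again 0 (background 13.4%, with 3.45% higher and 9.99% lower). In 0 of the 6 genes did the ages not overlap (background 18.7% of tested genes, with 4.48% higher and 14.2% lower). The median log2 difference over all tested genes was -0.08, with 66.2% of genes lower at 18 months. Against that median, Tek, Ptprb, Angpt2 and Angpt1 lay above it and Tie1 below.

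Ratios between genes of the same library depend little on how that library was scaled where both genes lie far above the 1 TPM that is added. They were compared as log2 ratios of TPM + 1 in 7 pairings, with exact permutation tests that are 2-sided and cannot go below p = 0.1 with 3 against 3 libraries. None passed, and the smallest was p = 0.3 in the exact test, with an adjusted p of 0.7 over the 7.

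Angpt2 stood 10.9 to 32.1 times above Angpt1 in TPM. The ratio was 13.8, 13.0 and 15.6 at 18 months and 10.9, 32.1 and 13.1 at 8 months, so the second 8-month library stood apart from the other 5. The mean log2 ratio was 3.58 ± 0.121 (SD, n = 3) at 18 months and 3.77 ± 0.764 at 8 months, a difference of -0.18 with an SE of 0.45 (exact permutation p = 1). Without the second 8-month library it was 0.25 (exact permutation p = 0.1, the smallest that test can give with the other 5 libraries). In TPM the ratios of those 5 still overlapped, with 13.0 at 18 months below 13.1 at 8 months.

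Tie1 stood at 0.901, 0.601 and 0.870 of the TPM of Tek at 18 months and at 0.850, 0.969 and 1.06 at 8 months. The second 18-month library was lowest, and the first and the third 18-month libraries lay above the lowest 8-month library. The log2 ratio differed by -0.30 with an SE of 0.21 (exact permutation p = 0.3). Ptprb stood at 0.602, 0.418 and 0.432 of Tek at 18 months and at 0.418, 0.451 and 0.502 at 8 months. Its log2 ratio differed by 0.07 with an SE of 0.18 (exact permutation p = 0.9).

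Set against the mean of the endothelial adhesion genes Pecam1 and Cdh5, the log2 ratio of Tek was 0.11 higher at 18 months with an SE of 0.14 (exact permutation p = 0.5). That of Tie1 differed by -0.19 with an SE of 0.20 (exact permutation p = 0.5), and that of Ptprb by 0.17 with an SE of 0.18 (exact permutation p = 0.4). The reference itself was not level between the ages. Cdh5 had a log2 difference of -0.28 without overlap (limma adjusted p = 0.32), and Pecam1 one of 0.003. These ratios therefore also carry the lower Cdh5 at 18 months. The last pairing, Svep1 to Tie1, is not read as a result, because Svep1 lies so far below the added 1 TPM that this ratio mainly follows Tie1 turned upside down. Its difference was 0.23 with 1 TPM and -0.28 with 0.1 TPM added. The sum of Tek and Tie1 was 12.4 to 16.8 times the sum of Angpt1 and Angpt2 at 18 months and 14.1 to 23.2 times at 8 months.

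**Figure D2:**
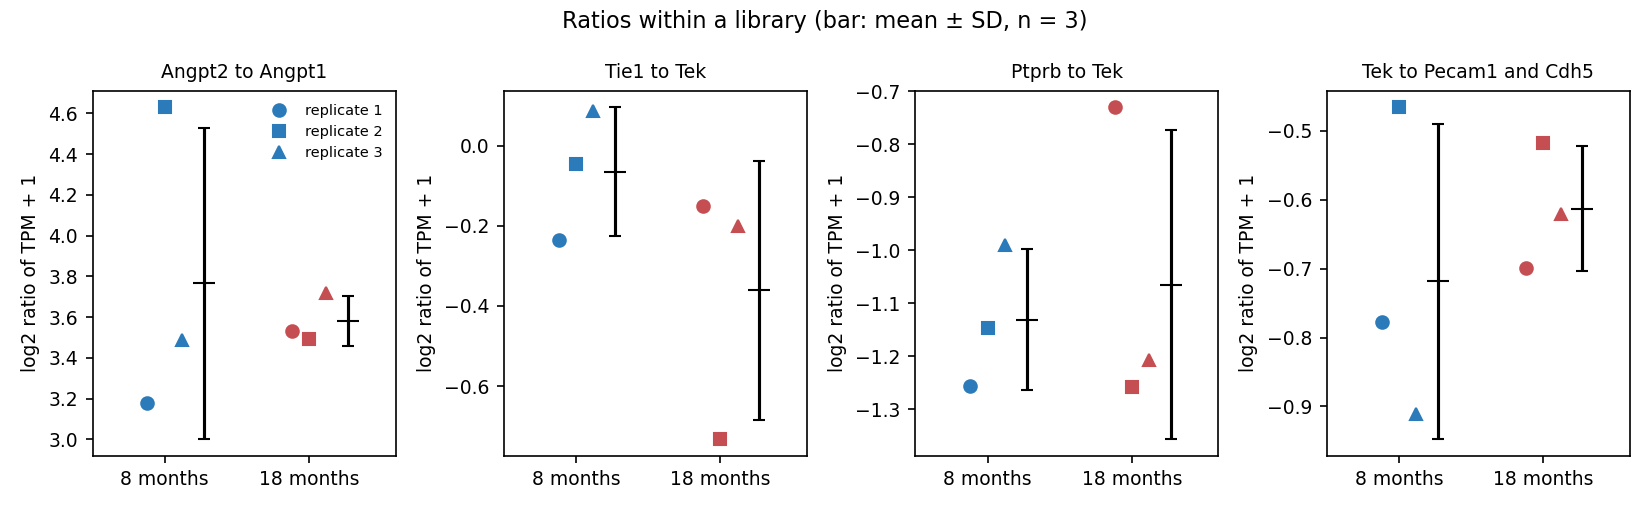
Log2 ratios of TPM + 1 within a library (y axes, which do not start at 0) for Angpt2 to Angpt1, Tie1 to Tek, Ptprb to Tek, and Tek to the mean of Pecam1 and Cdh5, by age (x axis); symbols mark the replicate number and bars the mean ± SD (n = 3). The second 8-month library, at 4.63, stands above the other 5 for Angpt2 to Angpt1, and the ages overlap in all 4 panels.

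The sort was checked against markers, since levels in bulk RNA depend on which cells are present. Fewer cells of a type and less RNA per cell cannot be told apart here. Of the 12 endothelial markers, which include Tek and Tie1, all were tested, and their summed level was 12637 to 13533 TPM at 18 months and 13727 to 15082 TPM at 8 months. As for Tie1, 11 of the 12 had a lower value at 18 months, and 0 passed, with the smallest p for Kdr, the VEGF receptor gene (372.8 ± 36.8 and 540.1 ± 44.5 TPM, SD, n = 3, limma adjusted p = 0.14). Of 11 myeloid markers (monocyte, macrophage and dendritic) 9 were tested, all 9 had a higher value at 18 months, and 0 passed. Their sums overlapped, at 927.6 to 1719.9 and 632.1 to 1762.4 TPM. RNA of epithelial cells was also present, at 9808 to 19885 and 11264 to 20517 TPM over 11 markers. Of the 10 markers of aerocytes, a capillary cell of the alveolus, 0 passed, and 9 were lower at an unadjusted p under 0.05 (limma, against 9.99% of all tested genes). Their sums were 4127 to 4673 TPM at 18 months and 5118 to 6737 TPM at 8 months. The sums of the 8 general capillary markers, which include Ptprb, overlapped, at 7280 to 8233 and 6428 to 7334 TPM, with 6 higher and 2 lower values and 0 passed. The part of these cells in the levels of Tek, Tie1 and Ptprb was not tested. Of the 8 lymphatic markers 5 were tested, all 5 had a lower value at 18 months, and 0 passed. Their sums were 602.3 to 759.4 TPM at 18 months and 917.3 to 1153.4 TPM at 8 months, and consisted mostly of Lyve1, which lung capillaries also express. Ccl21a, a chemokine gene of lymphatic vessels, lay at 1.66, 1.66 and 1.39 TPM at 18 months, against 3.68, 21.9 and 17.8 TPM at 8 months (limma adjusted p = 0.16). Flt4, the VEGF-C receptor gene, lay between 23.3 and 48.2 TPM, and Mmrn1 and Pdpn reached at most 2.55 and 1.32 TPM. Prox1 (at most 0.179 TPM) and Reln (at most 0.0738 TPM) were near 0, and Nts was at 0 in 4 libraries and reached 1.30 TPM in the third 8-month library. The part of lymphatic cells in the values of Svep1 was not tested.

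Angpt2 shared its highest library with the venous markers, but not its lowest. The summed level of these 7 genes was 444.5, 348.2 and 475.2 TPM at 18 months, against 468.1, 1042.6 and 856.2 TPM at 8 months. The second 8-month library was highest in both, at 103.8 TPM for Angpt2. In the third 8-month library the venous sum came next, while 3 libraries exceeded its Angpt2 of 71.1 TPM. None of the venous markers is at 0 in any library. All 7 were tested, all 7 had a lower value at 18 months, and 0 passed. At an unadjusted p under 0.05, 4 were lower (limma, against 9.99% of all tested genes). The part of the venous markers in the spread of Angpt2 was not tested.

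Angpt1 is known from platelets, megakaryocytes and mural cells. The 8 platelet and megakaryocyte markers summed to 21.1, 38.6 and 23.7 TPM at 18 months, against 25.1, 11.4 and 60.1 TPM at 8 months. The second 8-month library had the lowest sum and the lowest Angpt1, and the second 18-month and the third 8-month libraries had the highest 2 values of both. Other blood cell markers shared part of this order. The lymphocyte sum was also lowest in the second 8-month library (18.2 TPM) and highest in the third (54.8 TPM), but lay at 20.7 TPM in the second 18-month library. The erythroid sum was highest in the third 8-month library (1843.3 TPM) and lowest in the third 18-month library (324.2 TPM). Pf4, the platelet chemokine, lay between 4.98 and 22.8 TPM, and of the 8 markers Gp1bb was at 0 in the first 8-month library. The sum of the 16 pericyte and smooth muscle markers went the other way from Angpt1, at 45.1 to 52.4 TPM at 18 months and 72.2 to 101.9 TPM at 8 months. Of the 16, only Abcc9 (0.672 and 0.565 TPM) and Actg2 (0.715 and 0.632 TPM) had higher means at 18 months, and neither was tested. None of the 16 is at 0 in any library, and Pdgfrb, the pericyte receptor, lay at 3.10, 2.64 and 1.99 TPM against 6.96, 4.37 and 4.30 TPM. Of the 10 tested, 0 passed (limma, 7 lower at an unadjusted p under 0.05, against 9.99% of all tested genes). The 11 fibroblast markers summed to 25.6 to 35.7 TPM and 40.3 to 61.7 TPM. The part of these cells in the values of Angpt1 and Svep1 was not tested.

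**Figure D3:**
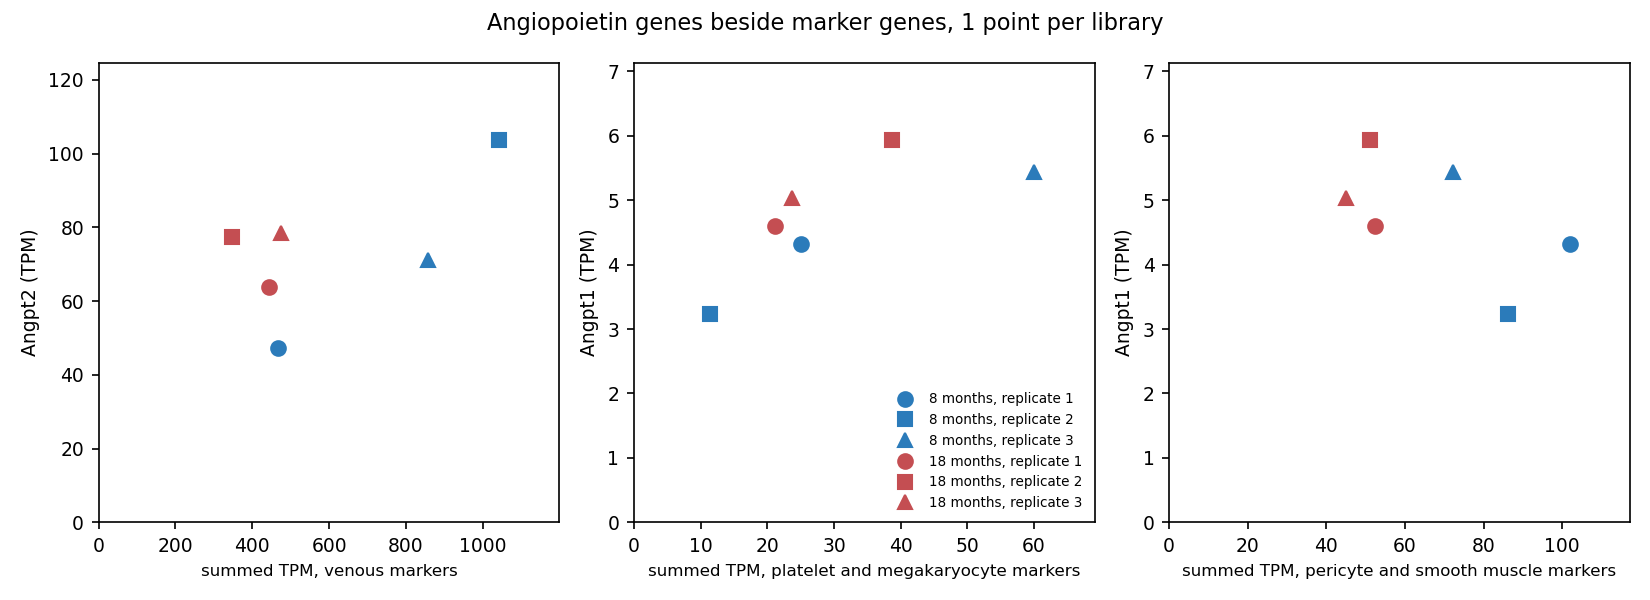
TPM of Angpt2 or Angpt1 (y axes) against the summed TPM of venous, platelet and megakaryocyte, or pericyte and smooth muscle markers (x axes), 1 point per library, blue for 8 months and red for 18 months, with symbols for the replicate number. The second 8-month library combines the highest Angpt2 with a venous sum of 1042.6 TPM and the lowest Angpt1 with a platelet sum of 11.4 TPM.

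The genes around the axis were described through 8 lists with 112 distinct genes, of which 92 reached a mean of 1 TPM. Of these 92, 0 passed the limma test over all genes. Before adjustment 1 gene was higher and 10 were lower at p under 0.05 (limma), which is 12% of them against 13.4% of all tested genes. The ages did not overlap in 17.4% of them, 1 higher and 15 lower, against 18.7% of all. The median log2 difference was -0.19 against -0.08 for all tested genes.

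Among other ligands and partners of the receptors, 10 of 13 listed genes were tested, members included, with 4 higher and 6 lower values, 0 called and a median log2 difference of -0.10. Cdh5, the VE-cadherin gene, lay at 738.8, 652.9 and 812.5 TPM at 18 months, against 875.0, 874.0 and 926.1 TPM at 8 months, without overlap. Its log2 difference was -0.28 (limma adjusted p = 0.32, unadjusted p = 0.030). Pear1, a further receptor of SVEP1, lay at 28.6 ± 2.85 and 33.5 ± 8.89 TPM (SD, n = 3). A pair of other ligand genes was low. Angpt4 lay at 0.225 ± 0.178 and 0.713 ± 0.659 TPM, and Lect2, a ligand of TIE1, was listed at 0 in all but the first 18-month library, where it lay at 0.205 TPM.

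In the signalling list from TIE2 to PI3K, AKT and MAPK, 24 of 26 genes were tested, with 8 higher and 16 lower values, 0 called and a median of -0.11. Grb14, an adaptor that binds receptor tyrosine kinases, had the smallest p of all 8 lists. It lay at 32.6, 26.4 and 31.4 TPM at 18 months, against 44.8, 45.2 and 52.8 TPM at 8 months, so every 18-month library was below every 8-month library. The log2 difference was -0.64 with an interval from -0.93 to -0.36 (limma adjusted p = 0.13). Nos3, the endothelial nitric oxide synthase gene, lay at 14.1 ± 4.36 and 22.9 ± 2.60 TPM (SD, n = 3; limma adjusted p = 0.21). Diaph1, a formin of the actin cytoskeleton, was the only listed gene with an unadjusted p under 0.05 and a higher value at 18 months, with 21.7 ± 2.41 and 16.0 ± 0.880 TPM (limma adjusted p = 0.22). Akt1 was listed at 0.176 to 1.45 TPM and Src at 0.0195 to 0.326 TPM, while Akt2 lay at 14.4 ± 4.05 and 12.7 ± 2.37 TPM. Very low values of widely expressed genes can come from the assignment of reads to transcripts, so they are given as listed values.

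Of the FOXO and KLF list 12 of 16 genes were tested, with 4 higher and 8 lower values, 0 called and a median of -0.23. Foxo1, which drives Angpt2, lay at 26.4, 23.0 and 25.2 TPM at 18 months, against 20.2, 31.9 and 27.0 TPM at 8 months. As for Angpt2, the 18-month libraries fell inside the 8-month range, with the first 8-month library lowest and the second highest. The log2 difference of Foxo1 was -0.06 (limma adjusted p = 0.92). Klf2, the flow-responsive factor, lay at 170.6 ± 24.6 and 211.7 ± 24.1 TPM (limma adjusted p = 0.36), Klf4 at 282.2 ± 63.5 and 368.7 ± 57.1 TPM (limma adjusted p = 0.41) and the tip cell gene Esm1 at 16.5 ± 5.22 and 27.9 ± 10.5 TPM (limma adjusted p = 0.42). Foxo3 was listed at 0 in all 6 libraries, which, as for Akt1 and Src, can come from the assignment of reads to transcripts.

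Weibel-Palade bodies are the granules in which endothelial cells store angiopoietin-2 with von Willebrand factor. Of 19 listed genes 17 were tested, with 6 higher and 11 lower values, 0 called by limma (0 also at an unadjusted p under 0.05) and a median of -0.10. Vwf lay at 291.8, 253.8 and 336.5 TPM at 18 months, against 283.0, 609.8 and 481.4 TPM at 8 months, and Selp, the P-selectin gene, at 7.90, 2.83 and 3.72 TPM against 4.21, 21.1 and 17.3 TPM. In both the first 8-month library lay inside the 18-month range and the second and the third lay above it. Rab27a, a GTPase of granule release, lay at 36.6 ± 3.68 and 47.3 ± 9.30 TPM (SD, n = 3). The limma adjusted p of each of these genes was from 0.39 to 0.40.

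For receptor shedding, by which metalloproteinases release the extracellular part of the TIE receptors, all 8 listed genes were tested, with 1 higher and 7 lower values, 0 called and a median of -0.28. Timp2, a metalloproteinase inhibitor, lay at 92.8 ± 4.70 and 113.0 ± 10.3 TPM (SD, n = 3; limma adjusted p = 0.29) and Rhbdf1, a cofactor of ADAM17, at 16.3 ± 3.47 and 21.1 ± 1.01 TPM (limma adjusted p = 0.36). Mmp14, a membrane metalloproteinase, lay at 3.58 ± 0.807 and 4.94 ± 0.647 TPM (limma adjusted p = 0.43).

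Of 19 transcription factors listed as regulators of Angpt2 or Tek, 16 were tested, with 3 higher and 13 lower values, 0 called and a median of -0.20. Nr2f2, the factor of venous identity, lay at 6.34 ± 0.486 and 12.6 ± 3.90 TPM (SD, n = 3; limma adjusted p = 0.19), the ETS factor gene Fli1 at 80.2 ± 29.0 and 116.2 ± 24.2 TPM (limma adjusted p = 0.38) and Epas1, which encodes HIF-2α, at 820.6 ± 185.6 and 1033.3 ± 78.3 TPM (limma adjusted p = 0.44). Of the angiopoietin-like genes, whose products are related in sequence but are not TIE2 ligands, 4 of 7 were tested and all 4 had lower values, with a median of -0.13 and 0 called. Angptl8 lay at 7.69 ± 2.13 and 8.89 ± 1.74 TPM, Angptl2 at 7.73 ± 1.17 and 8.03 ± 1.16 TPM and Angptl6 at 5.32 ± 1.14 and 6.16 ± 1.25 TPM. Of the 5 phosphatases of the family of VE-PTP, Ptprb and Ptprj were tested and 0 were called. Ptprj lay at 3.81 ± 0.514 and 5.72 ± 1.10 TPM without overlap (limma adjusted p = 0.32), at most 6.54 TPM against at least 270.0 TPM for Ptprb.

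**Figure D4:**
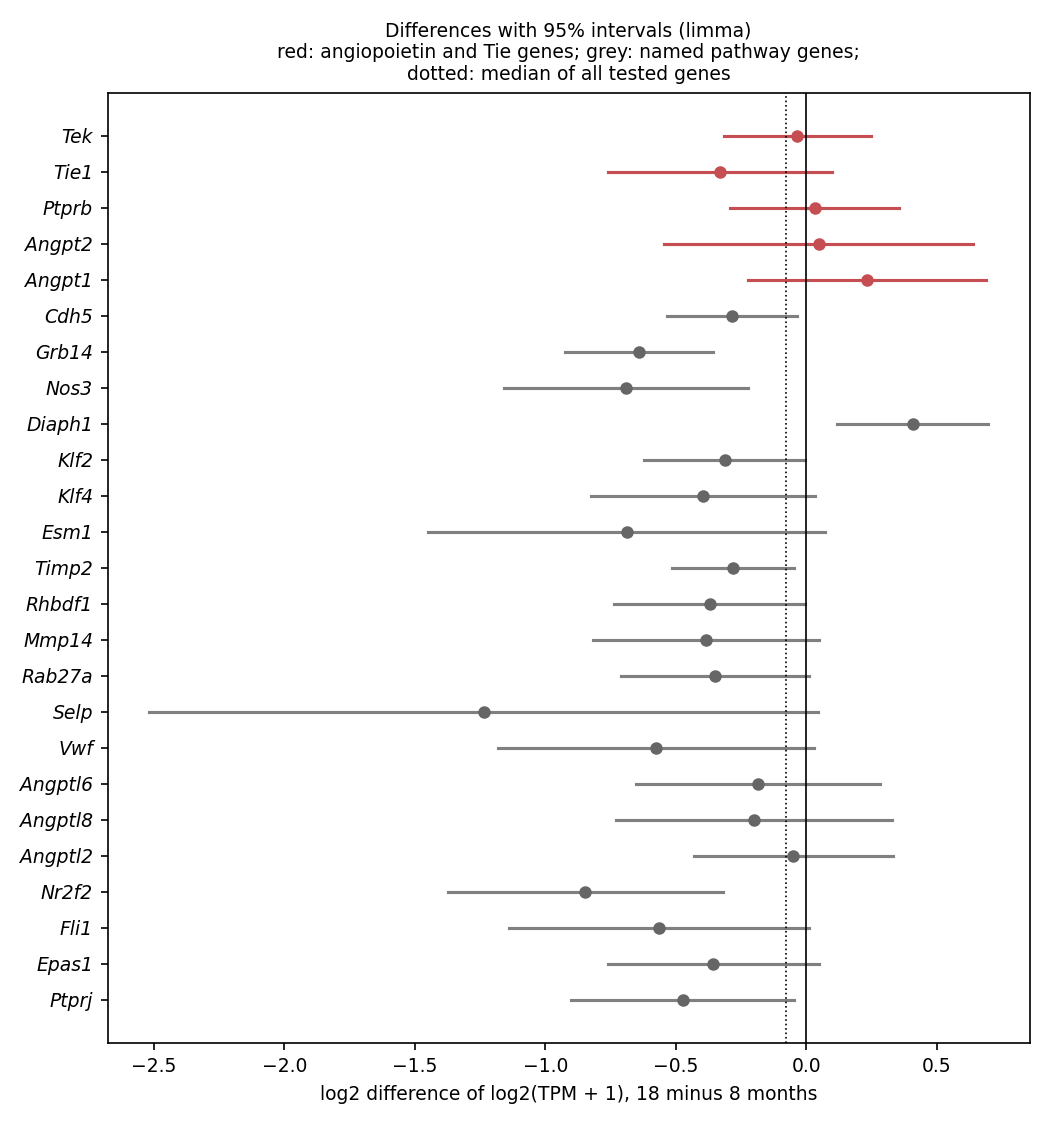
Difference of log2(TPM + 1), 18 minus 8 months (x axis), with 95% intervals from limma for the 5 tested angiopoietin and Tie genes (red) and the named genes of the 8 lists (grey); the dotted line is the median of all tested genes, -0.08. The intervals of all 5 red genes span 0, while the intervals of genes such as Grb14, Nos3, Nr2f2 and Diaph1 do not, although none of them passed after adjustment.

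The genes most like each member were found by the root mean square difference between profiles of log2(TPM + 1) over the 6 libraries, each centred on its own mean, among genes whose mean reached 5 TPM. These are descriptions over 6 libraries, and every profile compared comes from those same libraries. For Tek the closest of 9117 genes was Myct1, a gene expressed in endothelium, at 0.0249, where the profile of Tek itself had a root mean square spread of 0.126, followed by Rab3a and Fbxl12. Myct1 lay at 408.7, 434.6 and 467.2 TPM at 18 months, against 427.6, 492.8 and 400.1 TPM at 8 months, an order of libraries that differs from that of Tek only in the second 18-month and first 8-month libraries, which lie next to each other in both. For Tie1 the closest were Gpd1l (0.0419), Aaed1 and Lyn, for Ptprb Syne2 (0.0183), Taf3 and Tnpo3, for Angpt2 Izumo4 (0.0878), Cd44 and Gcat, and for Angpt1 Ptges (0.0870), Hist2h4 and Rev1.

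The members were not close to each other. In the order around Tek, Ptprb stood at place 4242, Tie1 at 6615 and Angpt2 at 7039 of 9117. Around Angpt2, Tek stood at place 739, within the closest 8.11%, which was the highest place of any member around another. Ptprb stood within the closest 17.3% around Angpt2 and 31.1% around Tie1. A place also depends on the spread of the gene at the centre, which was 0.338 for Angpt2 and 0.126 for Tek. The difference between Tek and Angpt2 was the same 0.275 in both orders. Around Angpt1, of 9118 genes, Tek stood at 4358 and Tie1 at 7923. Angpt1 itself, with a mean of 4.76 TPM, was under the minimum and has no place around the others.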

How the data were processed

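RNA was measured in 6 libraries of sorted lung endothelial cells, 3 per age. Per the labels' protocols, RNA was isolated with a kit for small samples and amplified with the SMARTer Ultra Low kit. The deposited values are TPM per Ensembl gene, made with kallisto on mm10 per the submitters' processing notes. Not given in the sources used here are its version, its transcript set and how transcripts became genes. The table sums to 869315 to 876126 TPM per library. Symbols came from GENCODE M21 (GRCm38), which named 24299 of 24520 identifiers. The 12748 genes whose mean reached 1 TPM were tested as log2(TPM + 1) with limma 3.58.1 in R 4.3.3, with an intensity trend, age as the only term, 2-sided, and Benjamini-Hochberg adjustment over all tested genes at 0.05. The test was run on simulated data first. Ratios were compared by exact permutation. The members and lists were chosen with earlier results of these data known.

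Named were the 6 members, up to 3 genes per list with the smallest unadjusted p, and the 3 genes closest to each tested member, leaving out predicted genes. Angpt4, Lect2, Pear1, Akt1, Akt2, Src, Foxo1, Foxo3, Mcph1 and the cell type markers were named after their values were seen, as was the choice of upstream windows and motifs. Alternatives were pseudocounts of 0.1 and 0.5, leaving out each library, quantile normalization, no filter or a filter at 5 TPM, scaling by the median of ratios, weighting of libraries, a fit with no trend, a block for the replicate number, a loess correction (span 0.75) for GC content and length, alone or with that block, and testing protein-coding genes only.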

Additional observations from a re-analysis of the deposited data

How the results depend on the processing

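None of the 5 tested members passed in any alternative (smallest limma adjusted p = 0.43, for Tie1). Tie1 and Angpt1 kept their sign in every alternative that tested them. The size for Tie1 did not hold. From -0.33 it shrank to -0.24 when scaled by the median of ratios. After correcting for GC content and length, without or with the replicate block, it was -0.079 (limma adjusted p = 0.88 without the block). Tek turned to 0.059 when scaled by the median of ratios, 0.015 under quantile normalization, 0.037 with library weights and 0.076 after correcting for GC content and length, without or with the replicate block, and ranged from -0.12 to 0.067 with a library left out. Angpt2 ranged from -0.24 to 0.32 and Ptprb from -0.084 to 0.13 with a library left out. Svep1 moved to -0.61 and -0.18 with pseudocounts of 0.1 and 0.5. With a library left out the log2 ratio of Angpt2 to Angpt1 ranged from -0.48 to 0.25 that of Ptprb to Tek from -0.10 to 0.16 and that of Tie1 to Tek from -0.40 to -0.11. Against Pecam1 and Cdh5 the ranges were 0.0090 to 0.23 for Tek, -0.30 to -0.052 for Tie1 and 0.048 to 0.29 for Ptprb. The highest value for Tek came without the second 8-month library (exact permutation p = 0.1, the smallest that test can give with 5 libraries). The ratio of Svep1 to Tie1 was -0.28 with a pseudocount of 0.1.

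The number of genes called, 3, became 0 with no filter (669 higher and 1534 lower at an unadjusted p under 0.05), 16 with quantile normalization, 94 with library weights, 28 among protein-coding genes, 0 with the replicate block, 0 with the block plus that correction, and 0 to 2 with a library left out; the cause was not tested. Same-numbered libraries did not deviate together (correlations of -0.012, -0.090 and 0.057), so the numbers are not known to pair samples.

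Median log2 differences of the lists moved under that correction, without or with the block, from -0.10 to 0.069 for ligands and receptor complex, from -0.23 to -0.063 for FOXO, and to -0.14 for shedding, 0.091 for angiopoietin-like genes and -0.076 for transcription factors. The median of all tested genes moved as well, from -0.08 to 0.0091. The median of the storage list was -0.20 with library weights. That of the phosphatases, -0.22 in the main analysis, was -0.0050 with no filter. At a mean of at least 5 TPM it was 0.031, which is the value of Ptprb alone, since Ptprj has a mean of 4.76 TPM. In each of the 8 lists 0 genes were called in every alternative. Angpt1 could not be tested at a mean of at least 5 TPM. With 3 libraries per age, the 95% intervals still hold folds of TPM + 1 as far as 0.590 for Tie1, 1.61 for Angpt1 and 1.56 for Angpt2, and for the low Angpt1 this understates the fold in TPM.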
